A study of Mus musculus with 15 samples.

Results

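The genes described here are 41 genes of the autophagy machinery and its regulators, chosen by mouse gene symbol from the 55421 genes counted in each sample. RNA was sequenced from CD4+ T cells that had been sorted from the spleen or the mesenteric lymph nodes (mLN) of Rag2-/- mice, which have no T or B cells of their own, 6 weeks after naive T cells were transferred to induce colitis. The donors were C57BL/6 mice in which loxP sites flank both alleles of Prkaa1, which encodes AMPKα1. WT donors (PRKAA1fl/fl) carried no Cre and KO donors carried CD4-Cre, which is active from the double-positive thymocyte stage on, so that the deletion preceded both the transfer and the colitis. Mice were 6 to 8 weeks old at use, both genotypes were littermates and all recipients were Rag2-/-. The paper reports weight loss and more severe disease in recipients of WT cells, and mild inflammation in recipients of KO cells. Between KO and WT samples, genotype and the disease of the recipient thus cannot be told apart. The 15 samples comprised 4 of WT spleen, 4 of KO spleen, 3 of WT mLN (replicates 1, 2 and 4) and 4 of KO mLN.

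In autophagy, a membrane sheet grows around cytoplasmic material, closes to an autophagosome and fuses with a lysosome, where the contents are degraded. The ULK1 kinase complex starts the process, the class III PI3 kinase marks the membrane with the lipid PI3P, lipid transfer proteins enlarge it, and 2 ubiquitin-like conjugation systems attach ATG8 proteins (LC3 and GABARAP) that capture cargo receptors. AMPK, a kinase that is activated when cellular energy is low, phosphorylates ULK1, and activated T cells depend on autophagy for the turnover of mitochondria and proteins. That regulation acts on proteins, whereas the values below are mRNA levels.

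Each sample held 9363940 to 11283439 reads on genes. The summed level of 8 T cell markers was 6367 to 8070 CPM (read counts scaled to 1000000 reads on genes, with TMM factors), and that of 5 B cell markers was at most 8.31 CPM, so the sorted population carried the defining markers of its label. 3 WT libraries stood apart by reads of the haemoglobin gene Hbb-bs, which had 998 CPM in WT spleen replicate 3, 463 CPM in WT spleen replicate 4 and 434 CPM in WT mLN replicate 4, against 8.03 to 59.8 CPM in the other 12. These Hbb-bs values were scaled without TMM factors. The genotype differences of Pink1 and Vmp1 and the WT organ calls as a set are given with and without them. Prkaa1 itself had a mean of 50.3 ± 3.23 CPM in WT and 20.0 ± 1.16 CPM in KO spleen (SD, n = 4 each), and of 54.2 ± 5.56 CPM in WT (n = 3) and 27.9 ± 5.33 CPM in KO mLN (n = 4). Its log2 fold change was -1.33 ± 0.08 in spleen (SE, adjusted p = 7.63e-05) and -0.95 ± 0.16 in mLN (adjusted p = 0.0372) in edgeR's quasi-likelihood test, with no overlap between KO and WT samples in either organ. In mLN this call was lost when any 1 library was left out, with adjusted p between 0.0533 and 0.161.

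Of the 41 genes, 40 had at least 1 read in every sample and passed the filter on low counts in every comparison. The exception was Wipi1, a PI3P-binding protein, which had 0 to 1.56 CPM. Exons of 8 genes overlapped another annotated gene over more than 10% of their bases, namely Becn1 (43.9%), Atg9a (32.6%), Gabarapl1 (28.3%), Wdr45 (24.7%), Bnip3 (22.3%), Atg4d (19.3%), Uvrag (17.6%) and Sqstm1 (17.3%). The strand setting of the counting is not given in the sources used here, so their values may include or lack reads of the partner.

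To show how abundant the parts of the machinery were relative to each other, levels were compared per kilobase of exon, after scaling to CPM. The exon length joined all annotated exons of a gene and can exceed its longest transcript. It was 9991 against 4249 bases for Tax1bp1 and 3356 against 2673 bases for Sqstm1. On this scale Gabarap was highest, with group means from 82.8 to 121, followed by the cargo receptor Sqstm1 (p62) with 67.4 to 106 and the cargo receptor Tax1bp1 with 39.2 to 45.5. With these exon lengths their order was the same in all 4 groups. Transcript lengths could give another order and were not used for it. Atg101, Becn1 and Atg3 lay between 29.3 and 36.6 in every group, and their ranges overlapped. At the low end were Wipi1 (0.107 to 0.217), the mitophagy receptor Bnip3 (0.547 to 1.84), the initiating kinase Ulk1 (1.37 to 1.82) and the lipid scramblase Atg9a (1.48 to 3.32). The second ULK kinase gene, Ulk2, was at 4.35 to 5.29 and thus above Ulk1 in every group.

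Within the ATG8 family, Gabarap alone made up 57.1% ± 2.50 of the summed per-kilobase level in WT spleen (SD, n = 4) and 62.0% ± 1.22 in WT mLN (n = 3). The corresponding values in KO were 57.9% ± 1.43 and 59.9% ± 0.73 (n = 4 each). Gabarapl2 and Map1lc3b (LC3B) each contributed between 14.9% and 17.6% on average, Gabarapl1 between 5.44% and 6.13%, and Map1lc3a between 2.73% and 3.68%. On this scale the GABARAP branch thus held the larger share of ATG8 mRNA in every group.

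Promoters were searched for the E-box CACGTG, the core of the element bound by TFEB and TFE3, the transcription factors of lysosomal and autophagy genes that are among the 41. RefSeq promoter windows (250 bases before to 50 bases after a start, GRCm38.p6) were matched for 34 of the 41 genes. CACGTG, which reads the same on both strands, was found in 5 of the 34 genes (14.7%), and in 8.09% of all 27025 genes with a window. The longer form GTCACGTG, searched on both strands, was found in 3 of 34 (8.82%, Atg14, Atg3 and Atg7) and in 2.55% of all genes. GTAAACA, a FOXO-type motif, was in 0 of 34 and in 4.05% of all genes. The stretches around CACGTG (in capitals) are shown for the 4 genes in which it lies before a start, so that each can be set beside its values below. They are Atg3 (chr16:45158713-45158785, plus strand), Atg5 (chr10:44268303-44268338, plus strand), Atg7 (chr6:114670942-114670991, plus strand) and Bnip3 (chr7:138909587-138909636, minus strand).
Atg3: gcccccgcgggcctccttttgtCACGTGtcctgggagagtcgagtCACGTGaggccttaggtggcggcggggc
Atg5: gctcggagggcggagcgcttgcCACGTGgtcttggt
Atg7: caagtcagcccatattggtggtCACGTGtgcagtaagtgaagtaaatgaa
Bnip3: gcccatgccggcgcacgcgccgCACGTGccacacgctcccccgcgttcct
Atg3 held the motif at 2 positions, and Atg3 and Atg7 held the longer form. The Atg7 window belongs to an internal start, since the gene is annotated from position 114643097 of chromosome 6. A match is a description of these letters and does not show binding.

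To ask whether autophagy transcripts differed between AMPKα1 KO and WT cells, the genotypes were compared within each organ. In these comparisons genotype went together with the disease of the recipients. None of the 40 tested genes passed an adjusted p of 0.05 in spleen, where 1.3% of all 14254 tested genes did, or in mLN, where 0.641% of 14359 did (edgeR). The median log2 fold change of the 40 genes was -0.05 in spleen and -0.09 in mLN, beside a median of 0.00 for all tested genes in either organ. In spleen 14 genes had a positive and 26 a negative fold change, and in mLN 16 and 24. In spleen 35 of the 40 fold changes lay within 0.25 of 0 on the log2 scale, and in mLN 31 did. Standard errors had a median of 0.09 in spleen and 0.13 in mLN, so small differences were not detectable with these samples.

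At an unadjusted p of 0.05, 5 genes had passed in spleen (background 20.5%), all lower in KO (background 10.8%), namely Atg13, Pink1, Bnip3l, Wdr45 and Tax1bp1. In mLN 4 had passed (background 15.7%), with Pink1, Atg2a and Atg4d lower (background 8.11%) and Nbr1 higher (background 7.58%). Over both directions these shares, 12.5% and 10%, were below the background. The spleen share of lower genes, also 12.5%, was near its background of 10.8%. DESeq2 called 2 genes in spleen (Atg13 and Pink1, background 6.13%) and 1 in mLN (Pink1, background 4.1%), all lower in KO. Groups did not overlap for 5 of 40 genes in spleen (background 12%) and for 4 of 40 in mLN (background 14%), in each case with KO below WT (backgrounds for that direction 6.13% and 7.37%). These were Atg13, Tax1bp1, Map1lc3b, Bnip3l and Wdr45 in spleen and Pink1, Atg4d, Sqstm1 and Atg2a in mLN.

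**Figure D1:**
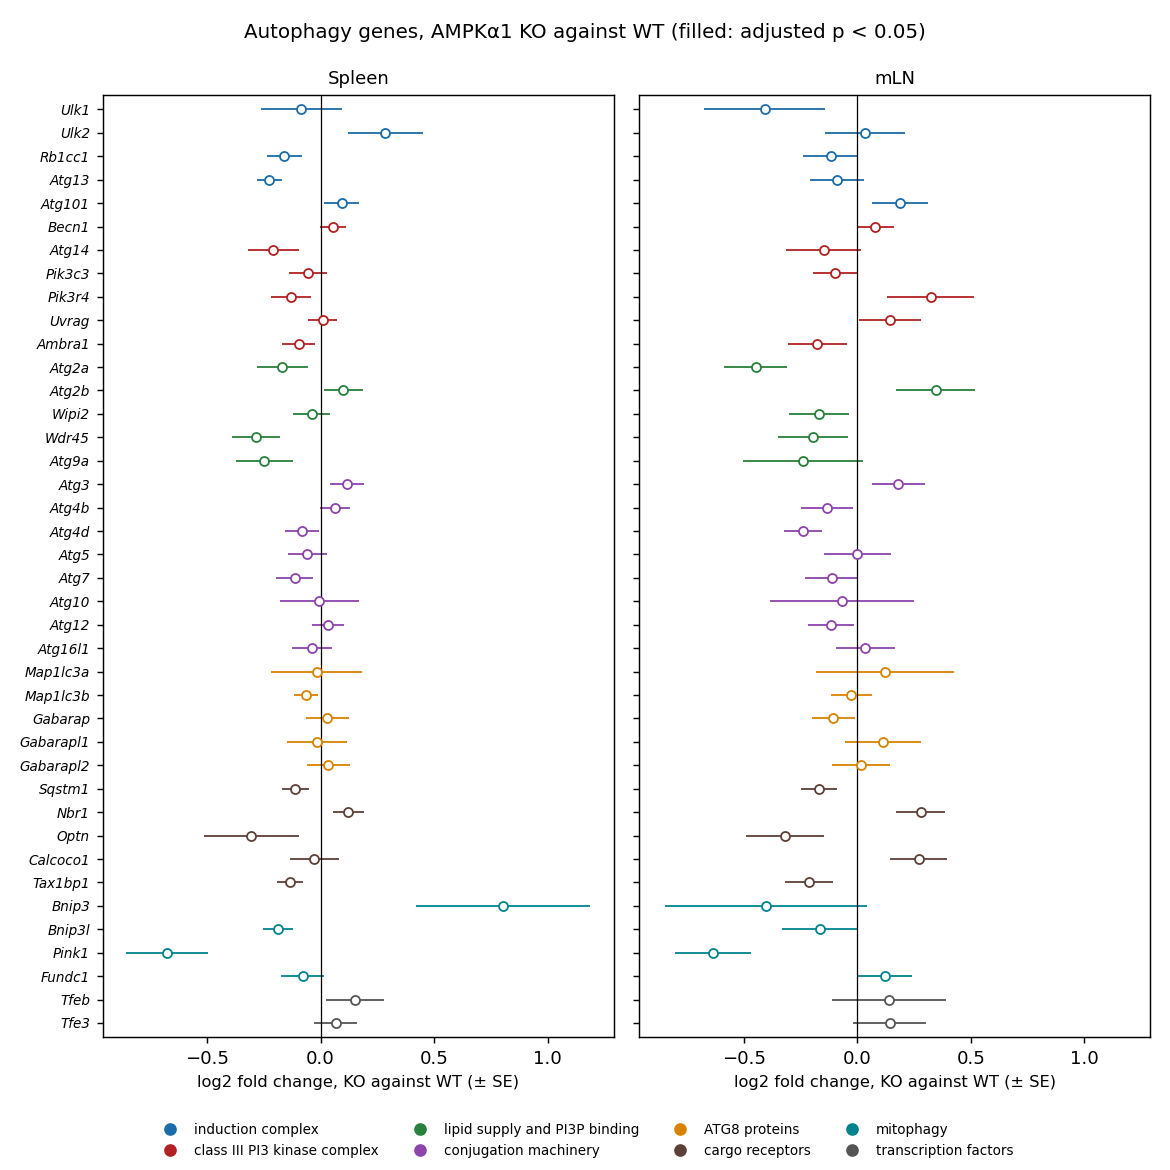
Log2 fold change of KO against WT (x axis, with SE) for the 40 tested autophagy genes (y axis, ordered and coloured by role) in spleen (left, 4 against 4 samples) and mLN (right, 4 against 3). All points are open, since 0 of 40 genes passed an adjusted p of 0.05 in either organ, and Pink1 lies at -0.68 and -0.64.

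Among the genes of the initiating kinase complex, Atg13, the adaptor that links ULK1 to the scaffold FIP200, had the smallest p in spleen. It was at 80.3, 82.9, 78.6 and 78.4 CPM in WT and at 68.4, 67.7, 68.6 and 69.4 CPM in KO spleen. The KO samples lay close together and below every WT sample, with a log2 fold change of -0.23 ± 0.05 (SE, adjusted p = 0.0689 with edgeR and 0.0292 with DESeq2). In mLN Atg13 was at 70.0, 77.6 and 67.7 CPM in WT and at 72.4, 71.4, 70.5 and 55.9 CPM in KO, where the groups overlapped (log2 fold change -0.09 ± 0.12). Ulk2 had 29.8, 30.5, 18.7 and 25.0 CPM in WT and 27.2, 36.3, 35.9 and 27.1 CPM in KO spleen, which overlapped (0.28 ± 0.17). In mLN Ulk2 was at 37.3, 27.8 and 26.5 CPM in WT and 26.7, 35.9, 35.0 and 27.3 CPM in KO. Ulk1, Rb1cc1 (FIP200) and Atg101 had log2 fold changes from -0.16 to 0.09 in spleen and from -0.41 to 0.19 in mLN, and none passed the test.

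The genotype difference with the largest size past an unadjusted p of 0.05 was that of Pink1, the kinase that labels damaged mitochondria for removal. It had 76.7, 94.1, 142 and 137 CPM in WT spleen and 76.7, 76.5, 62.8 and 65.8 CPM in KO spleen. In mLN it had 85.0, 96.6 and 139 CPM in WT and 81.7, 66.5, 68.6 and 58.2 CPM in KO. KO lay below WT in every mLN sample, whereas in spleen the lowest WT and the highest KO sample were at the same level. The log2 fold change was -0.68 ± 0.18 in spleen (SE, adjusted p = 0.0871 with edgeR and 0.00982 with DESeq2) and -0.64 ± 0.17 in mLN (0.12 and 0.0163). The 3 highest values, 142, 137 and 139 CPM, were those of the 3 libraries with haemoglobin reads. Without these libraries the log2 fold change was -0.28 in spleen (adjusted p = 0.275) and -0.41 in mLN (adjusted p = 0.38).

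**Figure D2:**
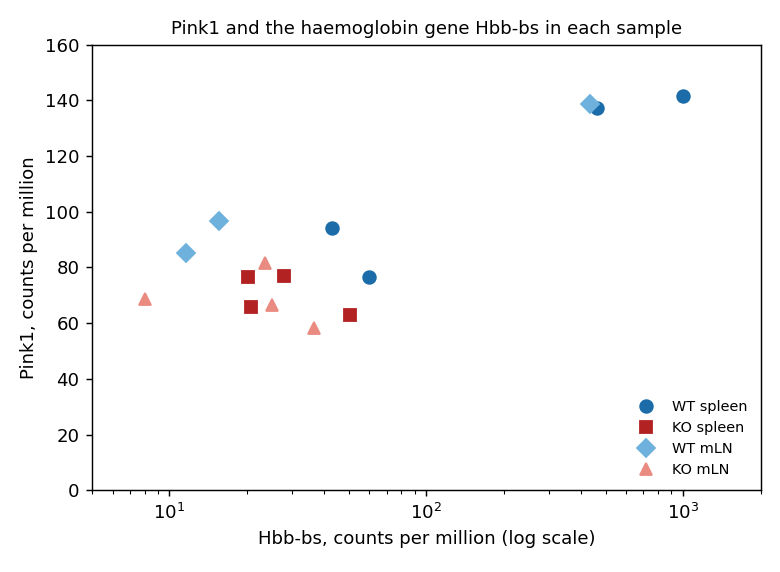
Pink1 CPM (y axis) against CPM of the haemoglobin gene Hbb-bs (x axis, log scale, scaled without TMM factors), 1 point for each of the 15 samples, with colour and shape marking the group. The 3 WT libraries with Hbb-bs at 434 CPM or more hold the 3 highest Pink1 values (137 to 142 CPM), and the other 12 samples lie between 58.2 and 96.6 CPM.

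The mitophagy receptors on the outer mitochondrial membrane did not pass the test between genotypes. Bnip3l (NIX) was at 89.7, 88.0, 88.8 and 98.96 CPM in WT and at 77.8, 77.0, 85.5 and 81.1 CPM in KO spleen. All KO samples were lower, with a log2 fold change of -0.19 ± 0.06 (SE, adjusted p = 0.151, edgeR). In mLN the Bnip3l values were 124, 111 and 154 CPM in WT and 154, 97.3, 111 and 98.9 CPM in KO, which overlapped. Bnip3, a receptor induced by hypoxia, was low, at 1.04, 1.03, 1.53 and 1.36 CPM in WT and 1.96, 0.959, 3.69 and 2.17 CPM in KO spleen (log2 fold change 0.81 ± 0.38, adjusted p = 0.267). In mLN it was at 5.66, 2.26 and 4.57 CPM in WT and 3.72, 4.14, 3.36 and 1.34 CPM in KO. Fundc1 was at 64.8, 50.9, 69.0 and 61.0 CPM in WT and 57.5, 61.0, 58.9 and 55.5 CPM in KO spleen, and at 69.6, 58.9 and 73.3 CPM in WT and 84.8, 67.1, 68.8 and 72.1 CPM in KO mLN. Its groups overlapped in both organs.

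Cargo receptors were also without a call. Nbr1, which binds ubiquitinated cargo together with p62, had 97.3, 95.7, 93.2 and 83.4 CPM in WT and 107, 96.7, 98.01 and 101 CPM in KO spleen. In mLN it had 90.0, 86.5 and 81.7 CPM in WT and 111, 87.6, 115 and 104 CPM in KO, with a log2 fold change of 0.28 ± 0.11 (SE, adjusted p = 0.257, edgeR). In both organs 1 or more KO samples fell within the WT range. Calcoco1, a receptor for the endoplasmic reticulum and Golgi, was at 52.3, 62.6, 59.1 and 49.5 CPM in WT and 61.7, 59.4, 47.7 and 50.6 CPM in KO spleen, and at 54.2, 60.6 and 56.7 CPM in WT and 74.2, 58.2, 78.9 and 64.5 CPM in KO mLN (0.27 ± 0.13, adjusted p = 0.332). Tax1bp1 lay between 422 and 448 CPM in WT and between 386 and 419 CPM in KO spleen, without overlap (-0.14 ± 0.06, adjusted p = 0.219). Optn had log2 fold changes of -0.31 and -0.32, with adjusted p of 0.445 and 0.414.

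No gene of the lipidation machinery passed between genotypes. The 5 ATG8 genes had log2 fold changes from -0.06 to 0.03 in spleen and from -0.11 to 0.12 in mLN. The 8 conjugation genes ranged from -0.12 to 0.12 in spleen and from -0.24 to 0.18 in mLN. Atg4d, a protease that processes ATG8 proteins, marked the lower end in mLN with 141, 136 and 144 CPM in WT and 115, 125, 121 and 114 CPM in KO. KO was below WT in every sample (-0.24 ± 0.08, SE, adjusted p = 0.212, edgeR). In spleen Atg4d was at 132, 153, 153 and 141 CPM in WT and 134, 135, 127 and 151 CPM in KO, where the groups overlapped. Its homologue Atg4b was at 77.6, 74.5, 82.7 and 70.0 CPM in WT and 80.8, 80.2, 77.9 and 80.1 CPM in KO spleen, and at 74.3, 77.1 and 88.8 CPM in WT and 79.1, 66.0, 79.7 and 67.1 CPM in KO mLN, with overlap in both organs. The class III PI3 kinase genes ranged from -0.21 to 0.06 in spleen and from -0.18 to 0.32 in mLN, and Tfeb and Tfe3 from 0.07 to 0.15 in both organs.

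Outside the 41 genes, a list of 22 other autophagy genes, 13 genes of autophagosome-lysosome fusion, 35 lysosomal genes and 8 genes upstream of TFEB and FOXO were tested in the same fits. Of 20 other autophagy genes tested in spleen, 1 was lower (Vmp1) and 1 higher (Trp53inp1) in KO, and of 19 tested in mLN 1 was lower (Vmp1), beside backgrounds of 1.3% and 0.641% for either direction. None of the fusion, lysosomal or upstream genes passed in either organ. At an unadjusted p of 0.05, 2 of 13 fusion, 5 of 34 lysosomal and 3 of 8 upstream genes passed in spleen (background 20.5%), and 0, 5 and 1 in mLN (background 15.7%).

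Vmp1 encodes a membrane protein of the endoplasmic reticulum that works with ATG2 and ATG9 in autophagosome growth. It was at 233, 230.0, 323 and 292 CPM in WT and at 162, 164, 169 and 165 CPM in KO spleen. In mLN it was at 394, 330 and 359 CPM in WT and at 276, 269, 240 and 240 CPM in KO. In either organ the highest KO value was under the lowest WT value. The log2 fold change was -0.71 ± 0.11 in spleen (SE, adjusted p = 0.0238) and -0.49 ± 0.09 in mLN (adjusted p = 0.0419, edgeR). Without the libraries with haemoglobin reads it was -0.49 in spleen (adjusted p = 0.0124) and -0.50 in mLN (adjusted p = 0.141). The spleen call was lost when any 1 KO library was left out (adjusted p up to 0.0805), and the mLN call when any library but KO replicate 1 was (up to 0.141). Vmp1 shares 2.4% of its exon bases with the gene of the microRNA miR-21.

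Trp53inp1, which encodes a p53-induced protein that binds ATG8 proteins, had 122, 125, 134 and 131 CPM in WT and 164, 160, 168 and 208 CPM in KO spleen. In mLN it had 132, 127 and 116 CPM in WT and 165, 151, 201 and 200.2 CPM in KO. KO was above WT in every sample of both organs. The call held in spleen alone, with a log2 fold change of 0.45 ± 0.09 (SE, adjusted p = 0.0444) against 0.52 ± 0.12 in mLN (adjusted p = 0.078, edgeR), and a difference between the organs did not pass (interaction 0.07 ± 0.15). In spleen the call was lost in 7 of the 8 fits that left out 1 library, with adjusted p between 0.0659 and 0.104.

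Some markers of other cells also differed between genotypes. Of 3 NK markers, Eomes, a transcription factor that T cells also express, passed as higher in KO in both organs (0.93 ± 0.18 in spleen, adjusted p = 0.0444, and 1.13 ± 0.21 in mLN, adjusted p = 0.0422, log2 with SE, edgeR). It made up most of the summed NK level, with 36.2 to 68.0 CPM in WT and 78.2 to 103 CPM in KO spleen, of sums of 48.7 to 71.8 and 87.0 to 106 CPM. In mLN it had 30.7 to 46.2 CPM in WT and 68.3 to 118 CPM in KO, of sums of 43.1 to 57.2 and 74.9 to 121 CPM. Klrb1c (NK1.1) had the opposite sign, with fold changes of -1.02 in spleen (adjusted p = 0.22) and -1.69 in mLN (adjusted p = 0.1), and Ncr1 averaged 0.788 to 4.42 CPM over the 4 groups.

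The haemoglobin gene Hba-a1 was at 19.8 to 360.1 CPM in WT and 7.23 to 23.2 CPM in KO spleen, and at 3.17 to 146.5 CPM in WT and 4.45 to 14.1 CPM in KO mLN, and neither it nor Hbb-bs passed an adjusted p of 0.05. Acta2, a smooth muscle actin in the list of 4 stromal markers, passed as higher in KO in spleen (1.60 ± 0.32, adjusted p = 0.0448) and mLN (2.67 ± 0.42, adjusted p = 0.0326), at no more than 7.53 CPM. The B cell factor Pax5 passed as higher in KO in mLN (adjusted p = 0.0372), with 0 to 0.203 CPM in WT and 1.67 to 4.42 CPM in KO, while the summed B cell level was 2.50 to 7.47 CPM in WT and 3.14 to 8.31 CPM in KO. Cd8a was at 0.305 to 8.46 CPM in WT and 16.5 to 23.1 CPM in KO mLN (1.93 ± 0.60, adjusted p = 0.166), beside 1007 to 1302 CPM of Cd4. No myeloid, dendritic or T cell marker passed an adjusted p of 0.05, beside backgrounds of 1.3% in spleen and 0.641% in mLN. All of these markers had reads in at least 1 sample, and their part in the autophagy values was not tested. In a bulk sample, fewer cells of a type and less RNA per cell cannot be told apart.

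The organ from which the cells came was associated with larger differences in the same genes. In WT cells 14 of 40 genes differed between mLN and spleen (35%, background 20.5% of 14515 tested genes), with 6 higher (background 9.7%) and 8 lower (background 10.8%) in mLN. In KO cells 16 of 40 differed (40%, background 25.3% of 14240), with 8 higher (background 11.4%) and 8 lower (background 13.9%). The median log2 fold change over the 40 genes was 0.06 in WT and 0.05 in KO, so the genes did not move in 1 direction as a whole. Organs did not overlap for 18 of 40 genes in WT (background 31.9%) and for 16 of 40 in KO (background 28.8%). The WT and KO comparisons share no sample. In both, 5 genes were higher (Wdr45, Map1lc3b, Gabarap, Sqstm1 and Bnip3l) and 6 lower (Uvrag, Ambra1, Atg2a, Atg2b, Atg9a and Atg7), which is 78.6% of the WT and 68.8% of the KO calls. Over all 13945 genes tested in both, the corresponding shares were 70.7% and 57.9%.

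Leaving out single libraries kept 10 to 14 calls in WT. In KO it kept 10 to 17, and the count of 10 came without KO spleen replicate 2. The shares of all genes called in these single-library fits are not given here. Without the WT libraries with haemoglobin reads, which left 2 samples in each organ, 7 WT genes were called (background 10.2%), with Gabarap and Sqstm1 higher and Uvrag, Ambra1, Atg2a, Atg2b and Atg9a lower. The WT calls of Wdr45, Map1lc3b, Bnip3, Bnip3l, Pik3r4, Atg7 and Tfe3 were lost in this fit. Replicate numbers paired the WT samples, and with the replicate as a block 18 of 40 WT genes were called (9 higher and 9 lower, background 30%), including all 14. The share of all genes called thus rose with the block as well, from 20.5%. The WT organ differences listed by gene below were fitted without this block and with all WT libraries.

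**Figure D3:**
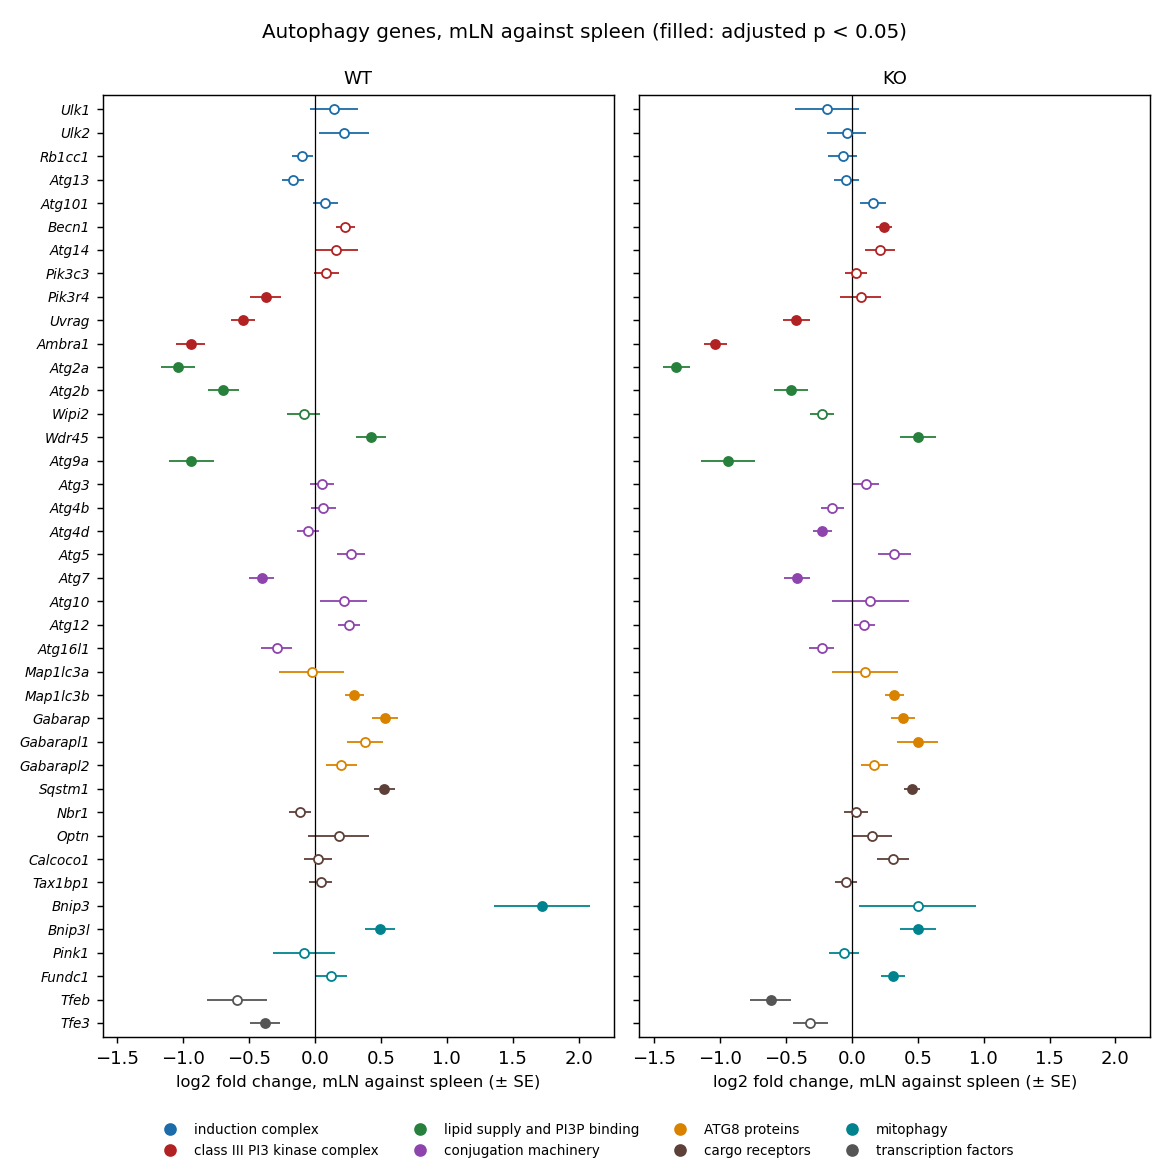
Log2 fold change of mLN against spleen (x axis, with SE) for the 40 tested autophagy genes (y axis, ordered and coloured by role) in WT (left, 3 against 4 samples) and KO (right, 4 against 4). Filled points passed an adjusted p of 0.05 (14 in WT and 16 in KO), with Atg2a at -1.04 and -1.33 and Sqstm1 at 0.53 and 0.46.

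Atg2a, Atg2b and Atg9a, which supply lipid to the growing membrane, were lower in mLN. Atg2a, which transfers lipids from the endoplasmic reticulum, was at 69.2, 82.9, 61.5 and 57.6 CPM in WT spleen and at 34.3, 32.4 and 33.1 CPM in WT mLN. In KO it was at 64.4, 60.3, 53.9 and 63.0 CPM in spleen and at 23.3, 24.6, 27.5 and 22.05 CPM in mLN. All mLN samples lay below all spleen samples, and within mLN all KO samples lay below all WT samples. The organ difference was -1.04 ± 0.13 in WT (log2, SE, adjusted p = 0.000951) and -1.33 ± 0.10 in KO (adjusted p = 8.75e-06, edgeR). The genotype difference of Atg2a was -0.17 ± 0.11 in spleen and -0.45 ± 0.14 in mLN (adjusted p = 0.431 and 0.161).

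Its homologue Atg2b was at 39.2, 39.1, 35.3 and 34.6 CPM in WT spleen and 25.7, 23.1 and 20.2 CPM in WT mLN. KO spleen had 40.7, 41.6, 34.9 and 41.6 CPM and KO mLN 23.2, 33.1, 32.8 and 27.7 CPM. Organs did not overlap in either genotype, with log2 fold changes of -0.70 ± 0.12 (SE, adjusted p = 0.00404) and -0.46 ± 0.13 (adjusted p = 0.0224, edgeR). The KO call of Atg2b was lost without KO spleen replicate 1, 2 or 4.

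Atg9a, the scramblase that receives lipids from ATG2, was at 20.7, 21.3, 19.4 and 15.3 CPM in WT spleen and 9.02, 11.3 and 9.75 CPM in WT mLN. In KO it was at 16.05, 17.8, 15.9 and 14.7 CPM in spleen and 8.19, 9.66, 10.8 and 5.38 CPM in mLN. Every mLN sample was lower (-0.94 in both genotypes on the log2 scale, with SE of 0.17 and 0.20 and adjusted p of 0.0055 and 0.00601, edgeR). Wdr45 (WIPI4), a PI3P-binding partner of ATG2, went the other way, with 19.9, 21.9, 20.3 and 22.5 CPM in WT spleen and 26.9, 30.6 and 28.2 CPM in WT mLN. In KO it had 15.2, 16.6, 19.5 and 18.2 CPM in spleen and 28.0, 26.0, 20.3 and 25.5 CPM in mLN. Organs did not overlap, with log2 fold changes of 0.42 ± 0.11 in WT (adjusted p = 0.0289) and 0.50 ± 0.14 in KO (adjusted p = 0.0197). The Wdr45 call was lost in WT in 5 of 7 fits without 1 library and in KO in 2 of 8 (without spleen replicate 1 or 2). Wipi2, which recruits the conjugation machinery, did not pass (-0.08 and -0.23, adjusted p = 0.679 and 0.0877).

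In the class III PI3 kinase group, the regulatory genes Ambra1 and Uvrag were lower in mLN. Ambra1, which binds Beclin 1 and links it to the ULK complex, had 94.0, 96.9, 105 and 90.0 CPM in WT spleen and 44.8, 48.4 and 58.2 CPM in WT mLN. In KO it had 91.4, 93.9, 81.7 and 94.8 CPM in spleen and 41.9, 41.4, 47.8 and 47.5 CPM in mLN. No mLN sample reached the spleen range (-0.94 ± 0.11 in WT, adjusted p = 0.000732, and -1.04 ± 0.09 in KO, adjusted p = 1.34e-05, log2 with SE, edgeR). Per kilobase, Ambra1 fell from rank 15 of the 41 genes in spleen to rank 26 in mLN in either genotype.

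Uvrag, the subunit of the endosomal form of the kinase complex, was at 80.5, 84.2, 81.3 and 80.6 CPM in WT spleen and 60.6, 59.0 and 49.6 CPM in WT mLN. KO spleen had 89.7, 79.4, 80.6 and 79.4 CPM and KO mLN 50.1, 67.1, 64.4 and 67.5 CPM. mLN lay below spleen throughout (-0.54 ± 0.09 and -0.42 ± 0.10, log2 with SE, adjusted p = 0.00384 and 0.012, edgeR). Becn1 (Beclin 1), the core scaffold, was at 195, 216, 214 and 203 CPM in WT spleen and 251, 246 and 236 CPM in WT mLN. KO spleen had 212, 212, 217 and 220 CPM and KO mLN 276, 236, 256 and 264 CPM. It was higher in every mLN sample and passed in KO (0.24 ± 0.06, adjusted p = 0.0152) but not in WT (0.23 ± 0.07, adjusted p = 0.0554).

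The call of Pik3r4 (VPS15), the pseudokinase subunit, was at the threshold in WT (-0.37 ± 0.12, log2 with SE, adjusted p = 0.0499, edgeR). It was at 49.2, 54.9, 53.6 and 43.3 CPM in WT spleen and 37.6, 43.7 and 35.8 CPM in WT mLN, and at 47.2, 48.1, 44.3 and 44.0 CPM in KO spleen and 55.7, 57.2, 31.9 and 50.5 CPM in KO mLN. Organs overlapped in both genotypes, and the call was lost without any of 5 of the 7 WT libraries. Pik3c3 (VPS34), the catalytic subunit, and Atg14, which directs the complex to the autophagosome, had organ differences from 0.03 to 0.21 and did not pass in either genotype.

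Of the 5 ATG8 genes, 2 passed as higher in mLN in WT (Gabarap and Map1lc3b, background 9.7%) and 3 in KO (these and Gabarapl1, background 11.4%). Gabarap was at 162, 130.2, 165 and 154 CPM in WT spleen and 224, 209 and 235 CPM in WT mLN. KO spleen had 149, 139, 175 and 162 CPM and KO mLN 237, 206, 193 and 191 CPM. Every mLN sample was above every spleen sample (0.53 ± 0.10 in WT, adjusted p = 0.00589, and 0.39 ± 0.09 in KO, adjusted p = 0.0102, log2 with SE, edgeR).

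Map1lc3b was at 171, 185, 174 and 175 CPM in WT spleen and 211, 219 and 223 CPM in WT mLN. KO spleen had 165, 168, 171 and 171 CPM and KO mLN 243, 208, 202 and 201 CPM. The organs were again separate, with log2 fold changes of 0.30 ± 0.07 (SE, adjusted p = 0.0197) and 0.32 ± 0.07 (adjusted p = 0.00759, edgeR). In WT the Map1lc3b call was lost without spleen replicate 1 or mLN replicate 2 or 4.

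Gabarapl1 was at 16.1, 17.95, 16.4 and 14.7 CPM in WT spleen and 22.7, 18.4 and 22.9 CPM in WT mLN, and at 14.8, 13.3, 18.5 and 17.96 CPM in KO spleen and 28.0, 20.6, 21.1 and 22.7 CPM in KO mLN. All mLN values exceeded those in spleen (0.38 ± 0.14 in WT, adjusted p = 0.0792, and 0.50 ± 0.15 in KO, adjusted p = 0.0333, log2 with SE, edgeR). The KO call was lost without spleen replicate 1 or 2 or mLN replicate 1. Gabarapl2 and Map1lc3a, with 0.20 and -0.03 in WT and 0.17 and 0.10 in KO, did not pass.

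The summed level of the 5 ATG8 genes was 391.9 to 424 CPM in WT spleen and 512 to 552 CPM in WT mLN. In KO it was 383 to 433 CPM in spleen and 483 to 597 CPM in mLN. Within each organ the WT and KO ranges overlapped.

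Sqstm1, whose product p62 carries ubiquitinated cargo to LC3 and is itself degraded by autophagy, was the cargo receptor called between organs. It had 242, 254, 229 and 252 CPM in WT spleen and 343, 343 and 376 CPM in WT mLN. In KO it had 226, 228, 222 and 230.3 CPM in spleen and 333, 324, 304 and 300.1 CPM in mLN. mLN was higher throughout (0.53 ± 0.08 in WT, adjusted p = 0.00236, and 0.46 ± 0.06 in KO, adjusted p = 0.000249, log2 with SE, edgeR). Within mLN all 4 KO samples lay below all 3 WT samples (-0.17 ± 0.08, adjusted p = 0.336). Nbr1, Optn, Calcoco1 and Tax1bp1 had organ differences from -0.11 to 0.18 in WT and from -0.05 to 0.31 in KO, and none passed.

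**Figure D4:**
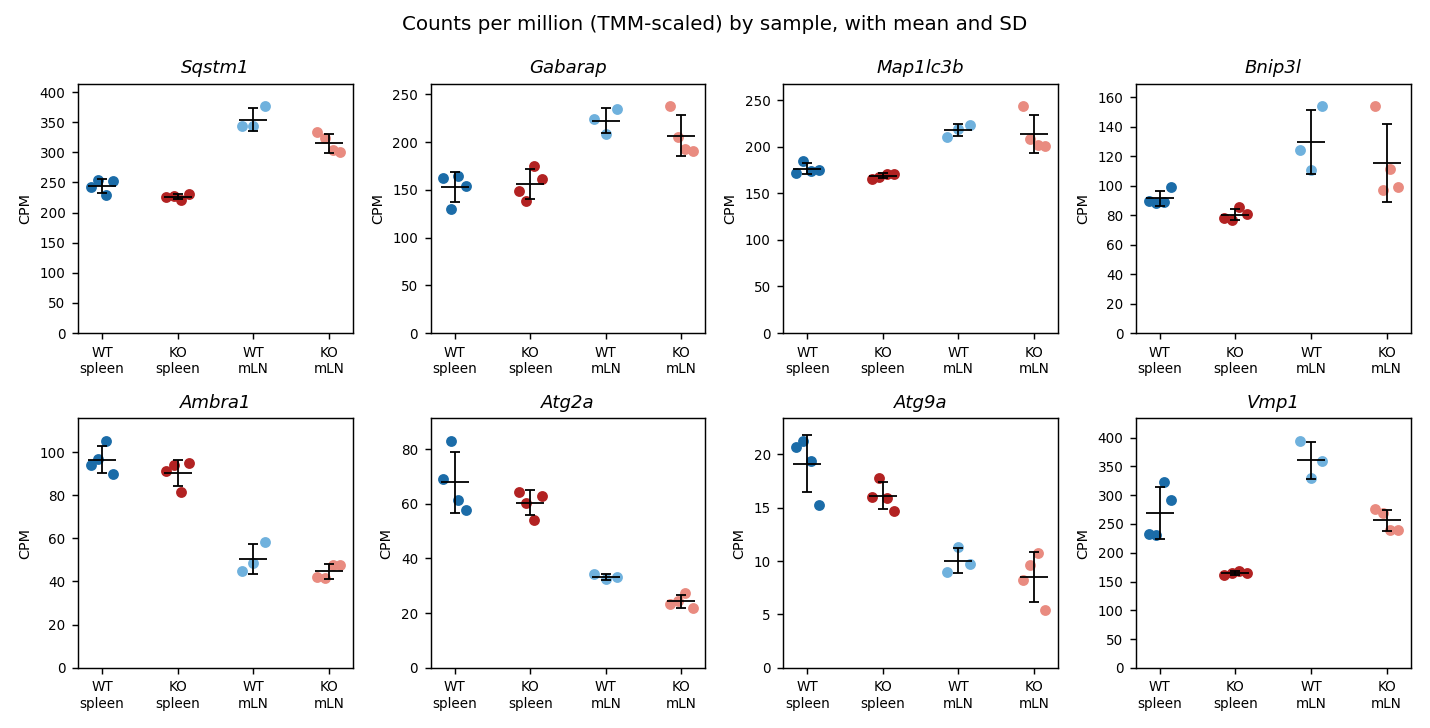
CPM (y axis, from 0) of 7 autophagy genes and Vmp1 in each sample (points) of the 4 groups (x axis), with the mean (bar) and SD (whisker). Sqstm1, Gabarap, Map1lc3b and Bnip3l are higher in mLN than in spleen, Ambra1, Atg2a and Atg9a are lower, and Vmp1 separates KO from WT within each organ.

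Of the 4 mitophagy genes, 2 passed as higher in mLN in each genotype (backgrounds 9.7% in WT and 11.4% in KO), and Bnip3l was called in both. The Bnip3l values listed above gave a log2 fold change of 0.50 ± 0.11 in WT (SE, adjusted p = 0.0162) and 0.50 ± 0.13 in KO (adjusted p = 0.0171, edgeR), and no mLN sample fell to the spleen range. Without KO spleen replicate 2 the KO call was lost, and without the libraries with haemoglobin reads the WT calls of Bnip3l and Bnip3 were lost. In WT the highest Bnip3l value of each organ was in a library with haemoglobin reads. Bnip3 had the largest organ fold change of the 40 genes in WT, 1.72 ± 0.37 (adjusted p = 0.0114), against 0.50 ± 0.44 in KO (adjusted p = 0.445). The difference between these, the interaction, was -1.22 ± 0.61 and did not pass, and all Bnip3 values were at or below 5.66 CPM. Fundc1 passed in KO (0.31 ± 0.09, adjusted p = 0.028) and not in WT (0.12 ± 0.12, adjusted p = 0.524), and its KO call was lost without any 1 of the 4 KO spleen libraries. Pink1 did not pass in either genotype (-0.08 ± 0.24 and -0.06 ± 0.11).

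Among the conjugation genes, Atg7, the E1-like enzyme shared by both conjugation systems, was lower in mLN. It was at 79.6, 76.6, 71.3 and 88.4 CPM in WT spleen and 58.5, 61.4 and 60.0 CPM in WT mLN. KO spleen had 74.7, 78.8, 68.0 and 70.4 CPM and KO mLN 56.5, 63.9, 48.1 and 53.2 CPM. Every mLN sample was below the spleen range (-0.41 ± 0.09 and -0.42 ± 0.10, log2 with SE, adjusted p = 0.016 and 0.0098, edgeR).

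Atg4d passed in KO alone (-0.22 ± 0.07, adjusted p = 0.0426, and -0.05 ± 0.08 in WT, edgeR), and this call was lost in 7 of the 8 fits that left out 1 library. Of the genes whose windows held an E-box, Atg7 (window at an internal start) was thus lower and Bnip3 higher (WT) in mLN. Atg3 (the E2-like enzyme for ATG8), Atg5 (part of the ligase that acts on it) and Atg14 had organ differences from 0.05 to 0.32 and did not pass in either genotype. Atg12, Atg10 and Atg16l1, the partners of ATG5, lay between -0.29 and 0.26.

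The transcription factors Tfeb and Tfe3 each passed as lower in mLN in 1 genotype. Tfeb was at 18.8, 17.8, 21.1 and 14.7 CPM in WT spleen and 12.9, 15.3 and 8.02 CPM in WT mLN. KO spleen had 20.5, 18.7, 22.6 and 18.9 CPM and KO mLN 13.4, 16.1, 13.4 and 10.5 CPM. The organs were separate in KO (-0.62 ± 0.15, log2 with SE, adjusted p = 0.0127) and overlapped in WT (-0.59 ± 0.23, adjusted p = 0.0976, edgeR).

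Tfe3 was at 69.5, 60.6, 79.5 and 59.7 CPM in WT spleen and 52.8, 52.0 and 51.6 CPM in WT mLN, and at 71.0, 66.8, 73.5 and 71.2 CPM in KO spleen and 43.0, 51.8, 66.8 and 68.6 CPM in KO mLN. It passed in WT (-0.38 ± 0.11, log2 with SE, adjusted p = 0.0416) and not in KO (-0.32 ± 0.13, adjusted p = 0.113, edgeR). The Tfe3 call was lost without any of 5 of the 7 WT libraries. None of the differences between genotypes in these organ effects passed, as the interaction test called 0 of 40 genes at an adjusted p of 0.05 and 0 at an unadjusted p of 0.05 with edgeR (background 0% and 4.22% of 15438 genes). With DESeq2 these counts were 0 and 1 (Pik3r4).

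The initiating kinase complex was the group without an organ call. Its 5 genes had log2 fold changes from -0.17 to 0.22 in WT and from -0.19 to 0.16 in KO. Its summed level was 294 to 322 CPM in WT spleen and 290.1 to 316 CPM in WT mLN, and 283 to 304 CPM in KO spleen and 276 to 333 CPM in KO mLN. The groups overlapped in both genotypes.

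Organ differences ran with transcript length in all genes, which bears on how the split into higher and lower genes is read. Over all tested genes the Spearman correlation of the log2 fold change with the length of the longest transcript was -0.30 in WT (n = 14497 genes) and -0.25 in KO (n = 14221), and over the 40 genes it was -0.52 and -0.64. These are descriptions across genes, which share the same libraries and are not independent. Genes with transcripts under 2000 bases had a median log2 fold change of 0.19 in WT and 0.15 in KO, and those of 4000 bases or more had -0.18 and -0.14. The genes lower in mLN were mostly long (Atg2a 6371, Atg2b 7546, Ambra1 5203, Uvrag 5157 and Atg9a 4218 bases) and those higher included short ones (Gabarap 1351, Wdr45 1609 and Sqstm1 2673 bases). Map1lc3b (4138 bases) and Bnip3l (3259 bases) were higher although their transcripts were not short.

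A correction for GC content and transcript length, added after the data were seen, changed the split from 6 higher and 8 lower to 9 higher and 5 lower in WT, and from 8 and 8 to 9 and 3 in KO (backgrounds for either direction after correction 18.1% and 24.1%). After correction Ambra1 (-0.59 and -0.69), Atg2a (-0.48 and -0.76) and Atg9a (-0.60 in both) were still called lower in both genotypes, and Sqstm1 (0.60 and 0.56), Map1lc3b (0.46 and 0.48), Gabarap (0.39 and 0.29), Wdr45 (0.36 and 0.49) and Bnip3l (both 0.52) higher. Uvrag (-0.32) and Atg2b (-0.39) remained called in WT only. The calls of Pik3r4, Atg7 and Tfe3 in WT, and of Uvrag, Atg2b, Atg7, Fundc1 and Tfeb in KO, were lost, and that of Atg4d in KO turned to 0.14.

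**Figure D5:**
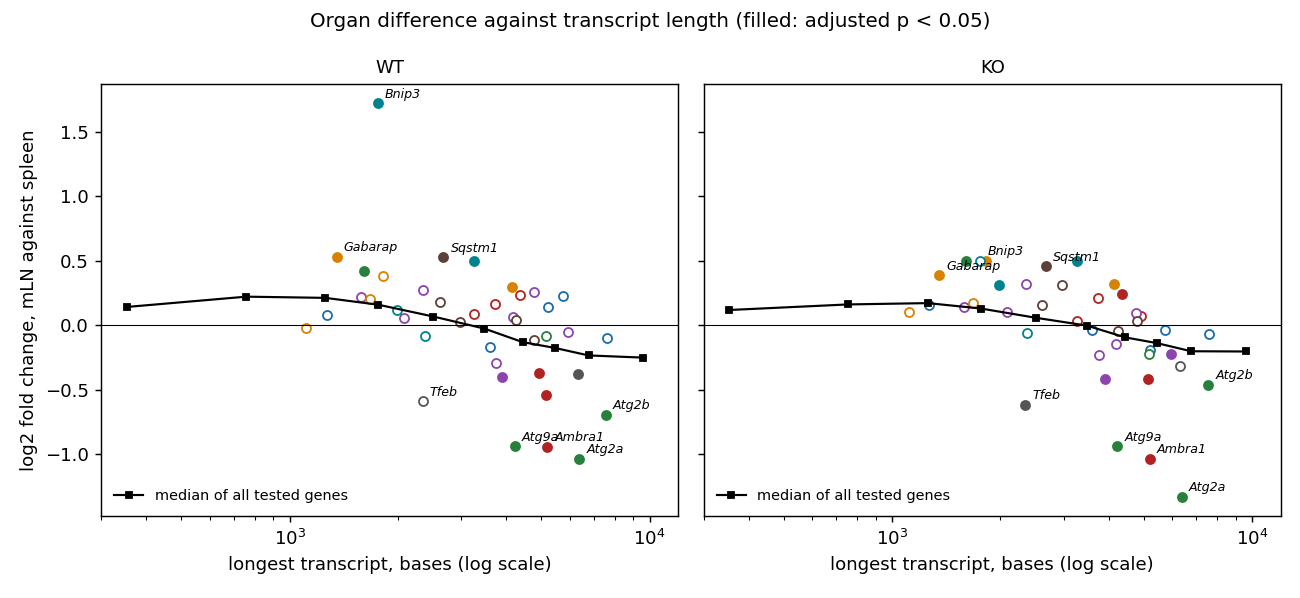
Log2 fold change of mLN against spleen (y axis) against the length of the longest transcript (x axis, log scale) for the 40 tested autophagy genes (points coloured by role, filled where adjusted p was under 0.05) in WT (left) and KO (right). The line joins medians of all tested genes in 10 length classes. In WT it rises from 0.14 in the shortest class to 0.22 in the next and then declines to -0.25. Atg2a, Ambra1 and Atg9a lie below the line and Sqstm1 above it.

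Other measures also differed between the organs. The share of uniquely aligned reads on no gene was 60.4% to 63.4% in spleen and 58.4% to 61.0% in mLN. The summed level of 8 myeloid markers had a median of 315 CPM in WT spleen (range 217 to 621) and 129 CPM in WT mLN (109 to 254), and of 236 CPM in KO spleen (192 to 599) and 108 CPM in KO mLN (96.1 to 115). Of the tested myeloid markers, 2 of 8 in WT (background 10.8%) and 5 of 7 in KO (background 13.9%) passed as lower in mLN. The 3 erythroid markers had negative fold changes in both genotypes. In KO 1 of them passed as lower (lowest fold change -2.09, background 13.9%), and in WT 0 passed (median -1.48). Of the stromal markers Col1a1 passed as lower in WT (-1.90), and Pecam1 (0.38) and Acta2 (1.22) as higher in KO. In KO Cd8a (4.43, from 0.174 to 1.63 CPM in spleen to 16.5 to 23.1 CPM in mLN), Pax5 (1.66), Itgax (1.15) and Siglech (2.71) also passed as higher, and the dendritic marker Xcr1 (-0.54) as lower (log2, edgeR, backgrounds 11.4% higher and 13.9% lower). The T cell markers Cd3d and Cd2 passed as higher in both genotypes (0.46 and 0.37 in WT, 0.48 and 0.26 in KO), and Cd3e as lower in KO (-0.23). No NK marker passed between organs. The part of these differences in the autophagy values was not tested.

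Lysosomal genes, which supply the compartment where autophagosomes end, were mostly higher in mLN among those called. Of 34 tested, 9 were higher and 2 lower in WT (backgrounds 9.7% and 10.8%), and 10 higher and 2 lower in KO (backgrounds 11.4% and 13.9%), with median log2 fold changes of 0.14 and 0.15. Over all tested genes, those with transcripts under 2000 bases had medians of 0.19 and 0.15. The part of transcript length was not tested for the lysosomal genes as a set, and of those named below a corrected value is given for Gaa alone. Ctsz (cathepsin Z), Npc2 (cholesterol export) and Ctsa (cathepsin A) had the smallest p of those higher in WT. Ctsa was at 390, 416, 456 and 391 CPM in WT spleen and 580, 508 and 578 CPM in WT mLN, and at 412, 403, 427 and 408 CPM in KO spleen and 660, 582, 552 and 502 CPM in KO mLN. mLN exceeded spleen in every sample (0.42 ± 0.09 in WT, adjusted p = 0.0111, and 0.46 ± 0.08 in KO, adjusted p = 0.00181, log2 with SE, edgeR). Ctsz (0.59 and 0.31) and Npc2 (0.41 and 0.31) also passed in both genotypes. Gaa (acid alpha-glucosidase) was lower in WT (-0.53 ± 0.12, adjusted p = 0.0137), a call lost after the length correction (-0.15).

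Of 13 fusion genes, 3 were lower in WT (Plekhm1, Vps18 and Epg5, background 10.8%), and 2 were higher and 3 lower in KO (backgrounds 11.4% and 13.9%). Plekhm1, an adaptor between autophagosomes and lysosomes, had -0.81 ± 0.19 in WT (log2 with SE, adjusted p = 0.0153) and -0.59 ± 0.10 in KO (adjusted p = 0.0015, edgeR), and Vps18, a subunit of the tethering complex, had -0.55 ± 0.12 in WT (adjusted p = 0.0141). After the length correction Vps18 in WT (-0.16) and Plekhm1 in KO (-0.16) were no longer called. Of the other autophagy genes, 1 of 19 was higher in WT (background 9.7%, Atg4a, 0.63 ± 0.16, adjusted p = 0.022). In KO 3 of 19 were higher and 3 lower, among them Vmp1 (0.62 ± 0.07, adjusted p = 7.55e-05), Trp53inp2, a nuclear and autophagosomal LC3 partner (-1.71 ± 0.32, adjusted p = 0.00284), and Bcl2l13, a mitophagy receptor (-0.48 ± 0.10, adjusted p = 0.00474). In WT Vmp1 had 0.41 ± 0.13 (adjusted p = 0.0538), and the interaction was 0.21 ± 0.15.

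Of the genes upstream of TFEB and FOXO, Rraga, a Rag GTPase that recruits mTORC1 and TFEB to lysosomes, was higher in mLN, and Foxo3 was lower. Rraga was at 56.6, 55.8, 58.4 and 54.7 CPM in WT spleen and 83.5, 71.9 and 67.7 CPM in WT mLN (0.39 ± 0.09, log2 with SE, adjusted p = 0.0156, edgeR), and its KO samples were equally separate (0.42 ± 0.07, adjusted p = 0.0017). Foxo3, a transcription factor for autophagy genes that AMPK phosphorylates, was at 42.1, 36.9, 49.98 and 38.6 CPM in WT spleen and 22.3, 24.6 and 18.7 CPM in WT mLN. In KO it was at 49.3, 60.2, 57.9 and 50.1 CPM in spleen and 24.1, 30.3, 45.7 and 29.8 CPM in mLN. mLN was below spleen in all samples of a genotype (-0.95 ± 0.14 in WT, adjusted p = 0.00262, and -0.77 ± 0.17 in KO, adjusted p = 0.00762). Foxo3 is long (7571 exon bases), and the values of Rraga and Foxo3 are given without the length correction. Between genotypes Foxo3 had 0.37 ± 0.11 in spleen (adjusted p = 0.107) and 0.57 ± 0.22 in mLN (adjusted p = 0.245).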

How the data were processed

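The authors aligned single-end reads of 75 bases to GRCm38 and deposited raw counts of reads per gene for each sample, without normalization. The submitters' processing notes name STAR 2.6.1a, RSEM and DESeq2 1.22.2. Whether strand was used is not given in the sources used here. Uniquely aligned reads were counted, which undercounts genes that have near-identical copies, and 58.4% to 63.4% of these reads lay on no gene. Those rows were left out of library sizes. The paper states that a WT mLN sample failed quality control and was left out by the authors. WT mLN replicate 3 was not analysed here.

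The 41 genes and all lists were chosen with earlier results of these data known. Symbols, positions and lengths came from GENCODE M21, in which 55240 of 55421 genes were found. Counts were tested across all genes with edgeR 4.0.16 in R 4.3.3 (filterByExpr, TMM, quasi-likelihood test) within the groups compared, and a gene was called at a Benjamini-Hochberg adjusted p under 0.05. The interaction was fitted over all 15 samples. Standard errors were derived from the fold change and its F statistic. Reads carry no molecular identifiers. Per the study's description the samples came from 1 experiment with separate mice as replicates. The p-values between genotypes thus measure the spread between the recipient mice of that experiment. How many donors supplied the transferred cells is not given in the sources used here. Whether spleen and mLN samples of a number came from the same mouse is not given in the labels. The paper's legend gives a single count of mice per group for both organs, so the organs may share mice. The main organ and interaction fits treated spleen and mLN samples as independent, and their p-values take no account of shared mice. The fits were tested on simulated data.

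Samples with the same replicate number deviated together in WT spleen and mLN (correlations of deviations from group means 0.258, 0.242 and 0.291 over 15438 genes). This did not hold throughout in KO or between genotypes. The main fits used no pairing, in WT either, and the pairing entered only through the replicate block, an alternative fit. Values in every sample are given for genes called in any comparison and for up to 3 genes per direction with the smallest p in each comparison. From the other lists, up to 3 called genes per direction and comparison are named, and Tax1bp1, Optn, Atg4a, Foxo3 between genotypes and Epg5 were added after their values were seen. Alternatives were DESeq2 1.42.0, RLE normalization, other filters, the replicate block, a joint fit, leaving out each library and, chosen after seeing the data, a correction for GC content and transcript length by offsets for each sample and leaving out the 3 libraries with Hbb-bs over 100 CPM.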

Additional observations from a re-analysis of the deposited data

Results flagged for a closer look

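In 8 of the 123 groups of 4 samples tested among the 41 genes, 1 sample lay far from the other 3 (Dixon's test), where chance flags about 1 in 20 (5%). KO mLN replicate 4 had 55.9 CPM of Atg13, against 70.5 to 72.4 CPM in the other KO mLN samples. KO mLN replicate 3 had 58.7 CPM of Pik3c3, against 64.5 to 65.3 CPM. KO mLN replicate 1 was high for Map1lc3b (243 CPM, against 201 to 208) and for Gabarapl2 (79.6 CPM, against 64.1 to 64.6). In KO spleen, replicate 1 had 89.7 CPM of Uvrag (others 79.4 to 80.6), replicate 2 had 67.8 CPM of Atg12 (others 76.2 to 77.1) and replicate 3 had 34.9 CPM of Atg2b (others 40.7 to 41.6). WT spleen replicate 4, a library with haemoglobin reads, had 98.96 CPM of Bnip3l, against 88.0 to 89.7 CPM in the others.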

How the results depend on the processing

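Between genotypes the count of called genes stayed at 0 in spleen and in mLN (range 0 to 0 when each library was left out), and changed to 2 in spleen and 1 in mLN with DESeq2 and to 1 in each organ without a filter on low counts (Pink1). Between organs the count was 14 in WT (background 20.5%) and 16 in KO (background 25.3%). Without 1 library it was 10 to 14 in WT and 10 to 17 in KO, and without the libraries with haemoglobin reads 7 in WT. For the single-library fits and the KO fit with the replicate block, the shares over all genes are not given here. With the replicate block the count was 18 in WT, where the pairing held, and 15 in KO, where it did not (2 of 4 samples correlated best with their own number), and 0 between genotypes in either organ. The block also ended the calls of Vmp1 in spleen (adjusted p = 0.0681) and mLN (0.2), Trp53inp1 in spleen (0.0989) and Prkaa1 in mLN (0.117), where numbers did not pair the samples. Values reversed for Atg4d between organs in KO (0.14 with the GC and length correction) and for the interaction of Vmp1 (-0.006 without the libraries with haemoglobin reads). The interaction count was 0 in every fit. The per-kilobase median over the genes was 9.51 with and 9.35 without TMM factors. With 3 or 4 samples a group, the median SE of a log2 fold change was 0.09 between genotypes in spleen and 0.13 in mLN, which limits the differences that could be called.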
